A study of Mus musculus with 28 samples.

Results

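The NIH3T3 K-ras line grown at 25 mM glucose was compared at 72 h and at 24 h after the change of medium, with 2 arrays at each time, so 4 of the 28 arrays of the series. The members were all arrays whose labels give that line, that glucose concentration and either time. NIH3T3 is an immortalised mouse embryonic fibroblast line, and NIH3T3 K-ras, called the K-ras line below, is its counterpart named for the K-ras oncogene. How the K-ras line was made, and whether it is 1 clone, is not given in the labels used here. Both lines were kept in medium with newborn calf serum and 4 mM glutamine, moved to medium of either glucose concentration after 18 h, and collected at 0, 24, 48 and 72 h. Beside the K-ras arrays at 72, 48 and 24 h, the NIH3T3 arrays at 72, 48 and 24 h and 25 mM glucose were used, 2 per group, and no other treatment is named for any of these 12 arrays.

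K-ras is a small GTPase that passes signals from growth factor receptors to the RAF, MEK and ERK kinases, and its oncogenic forms keep that pathway active. ERK output includes AP-1 transcription factors such as Fosl1 and feedback inhibitors such as the Sprouty proteins and the dual-specificity phosphatases. Fibroblasts that stop dividing at high density usually lower the genes of DNA replication and ribosome production and raise those of the extracellular matrix.

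Every value below is a log2 ratio of a gene to its own median over the 28 arrays. A change is the mean at 72 h minus the mean at 24 h on that log2 scale, with its standard error from limma. Levels cannot be compared between genes, and no gene can be called absent. The labels call the arrays biological replicates without naming separate cultures or days, so a p-value measures the spread between these arrays only.

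The labels were checked against genes that differ between the lines. Il33, an alarmin cytokine, lay between 2.05 and 3.09 in the 6 K-ras arrays and between -6.26 and -5.52 in the 6 NIH3T3 arrays at 24, 48 and 72 h. Krt14, a basal epithelial keratin, lay between -4.59 and -4.16 in the K-ras arrays and between 0.95 and 2.13 in the NIH3T3 arrays. All 12 arrays thus sat with their labelled line. The 6 arrays of the series that did not were at 0 h or at 1 mM glucose. They entered no group mean or test here except in named alternatives, but they count in each gene's median over the 28 arrays, in the choice of its probe set and in ranges over the series.

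Array 1 at 72 h, the library labelled replicate 1, stood apart from the others, and array 2 is replicate 2. Its interquartile range over the genes was 0.777, against 0.29 to 0.525 on the other 27 arrays of the series. The bacterial hybridisation controls bioC and bioB, spiked in by the array protocol, were at 2.98 and 3.07 on it, against at most 0.828 and 0.616 elsewhere. The 2 replicates at 72 h differed by a median of 0.438 log2 units per gene, while those at 24 h differed by 0.198. In the NIH3T3 line the replicates differed by 0.177 at 72 h and by 0.312 at 24 h. The 48 h arrays, which share the estimate of the spread, differed by 0.186 in the K-ras line and 0.275 in NIH3T3. These 48 h pairs correlated at r = 0.715 and 0.261. NIH3T3 replicate 1 at 48 h correlated at 0.783 and 0.775 with the NIH3T3 72 h arrays, and replicate 2 at 0.386 and 0.436. A distance of at least 1 log2 unit from the K-ras 24 h mean was reached by 3118 of 18193 genes on array 1 and by 666 on array 2. Both arrays passed it on the same side in 195 genes, 131 of them higher and 64 lower at 72 h. Array 2 at 72 h and array 1 at 24 h correlated at r = 0.701 over all genes, which is more than either did with its own replicate, at 0.235 for the 72 h pair and 0.337 for the 24 h pair. BioC and bioB were at -0.26 and -0.69 on that 72 h array and at -0.19 and -0.59 on that 24 h array. The actin control at the end of the transcript minus that at its start, a measure of RNA integrity, was 0.65 and 0.49 on these arrays. On their replicates it was -0.28 at 72 h and -0.18 at 24 h. The part that these differences between arrays play in the results below was not tested. Beside the list medians below, values without array 1 or array 2 mean without that 72 h array.

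**Figure D1:**
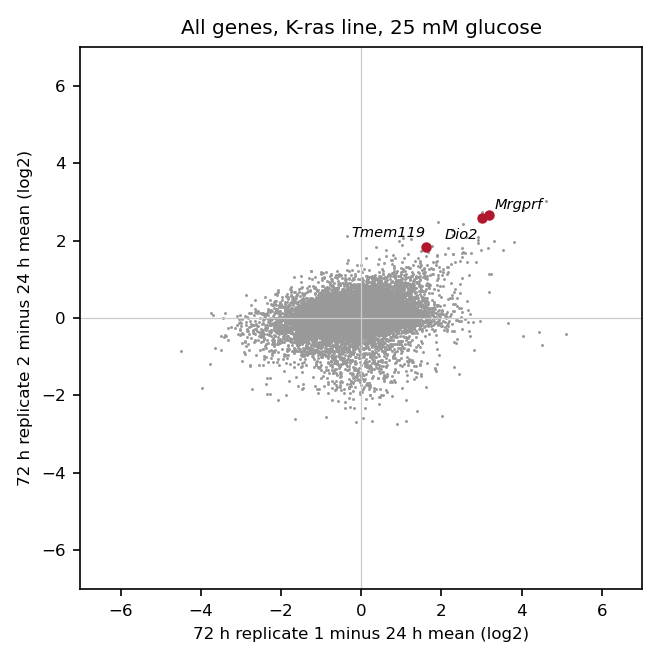
Each point is 1 of 18193 genes. The horizontal axis gives array 1 and the vertical axis array 2 at 72 h, each minus the mean of both 24 h arrays (log2 units). The cloud is wider along array 1, on which 3118 genes lie at least 1 unit from zero, than along array 2, on which 666 do. Dio2, Mrgprf and Tmem119, in red, lie high on both.

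Between 72 and 24 h in the K-ras line 3 genes rose and 0 fell (limma, Benjamini-Hochberg adjusted p under 0.05), which is 0.0165 percent of the genes tested in the upward direction and 0 percent in the downward one. The 3 were Mrgprf, Dio2 and Tmem119. At an unadjusted p under 0.05 there were 1580 genes, 8.68 percent, of which 813 (4.47 percent) were higher and 767 (4.22 percent) lower. The count depended on the fit. With all 28 arrays sharing 1 estimate of the spread 0 genes were called, although 1849 had an unadjusted p under 0.05. Without array 2 at 72 h the count was 2744, and without any other single array of the 8 at 72 or 24 h it was 0. With the 72 h replicate numbers swapped and used as a block it was also 0. On simulated data of the same size the fit found 80 percent of changes of 2 log2 units and 8 percent of changes of 1 unit. Those simulated arrays were independent, with the same spread on every array for a gene, whereas array 1 at 72 h was wider than the rest. The shares thus may not hold here, though small changes were largely out of reach in that simulated setting with 2 arrays a group.

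Dio2 encodes type 2 deiodinase, the enzyme that converts thyroxine into the active hormone T3 inside cells. Its log2 ratios in the K-ras line were 3.47 and 3.03 at 72 h, against 0.27 and 0.64 at 24 h, and 3.93 and 3.29 at 48 h. The 72 h and 24 h arrays did not overlap, and the 48 h arrays were as high as those at 72 h. The change was 2.79 ± 0.28 (limma adjusted p = 0.0279). In NIH3T3 Dio2 stood at -0.88 and -0.88 at 72 h, against -0.45 and 0.00 at 24 h, a difference of -0.66 (limma adjusted p = 0.179). The change differed between the lines by 3.45 ± 0.39 (limma adjusted p = 0.0296). Dio2 has 3 probe sets, and their changes ranged from -0.24 to 2.79. The mean of the 3 gave 1.03 (limma adjusted p = 0.257), which did not pass. Their differences between the lines ranged from 0.30 to 3.45, and with the mean of the 3 that difference did not pass either.

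The proximal promoter of Dio2 is shown because this gene alone passed in both comparisons, with a cAMP response element (TGACGTCA, the site bound by CREB) in capitals. It is the sense strand, from 250 bases before to 50 bases after the transcription start (RefSeq, GRCm38.p6, chr12:90738989-90739288, minus strand).
Dio2 promoter: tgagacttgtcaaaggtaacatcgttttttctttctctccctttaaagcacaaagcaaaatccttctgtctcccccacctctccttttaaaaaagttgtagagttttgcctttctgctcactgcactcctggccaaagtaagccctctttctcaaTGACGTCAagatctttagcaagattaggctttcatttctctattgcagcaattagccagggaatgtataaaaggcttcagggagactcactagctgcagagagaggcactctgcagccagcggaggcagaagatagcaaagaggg
The element begins 95 bases before the start. On either strand, 588 of 32851 promoters in the same table hold TGACGTCA, which is 1.79 percent. The motif was chosen after this promoter was seen, so the share does not measure how unusual the match is. The match describes these letters and says nothing about binding.

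Mrgprf encodes an orphan G protein-coupled receptor of the Mas-related family. It stood at 1.90 and 1.37 at 72 h, against -1.49 and -1.07 at 24 h, and at 1.30 and 0.60 at 48 h. Both later times lay above both 24 h arrays. The change was 2.92 ± 0.30 (limma adjusted p = 0.0279), from the gene's 1 probe set. In NIH3T3 the ratios were 2.35 and 2.38 at 72 h, against 0.01 and -0.06 at 24 h. That line also rose, by 2.39 ± 0.30 (limma adjusted p = 0.00725), and the difference between the lines was 0.52 ± 0.43 (limma adjusted p = 0.569).

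Tmem119 encodes a membrane protein known in mouse for bone formation by osteoblasts. Its ratios were 1.06 and 1.27 at 72 h, against -0.66 and -0.45 at 24 h, with 0.82 and 0.81 at 48 h. The change of 1.72 ± 0.20 had a limma adjusted p of 0.0387. In NIH3T3 it stood at 1.40 and 1.24 at 72 h, against -1.45 and -1.15 at 24 h, and rose by 2.62 ± 0.20 (limma adjusted p = 0.000673). The change in the K-ras line was smaller by 0.90 ± 0.28, a difference that did not pass (limma adjusted p = 0.238). Of the 3 genes, Mrgprf and Tmem119 thus rose in both lines, and Dio2 was called in the K-ras line and in the test of the difference.

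**Figure D2:**
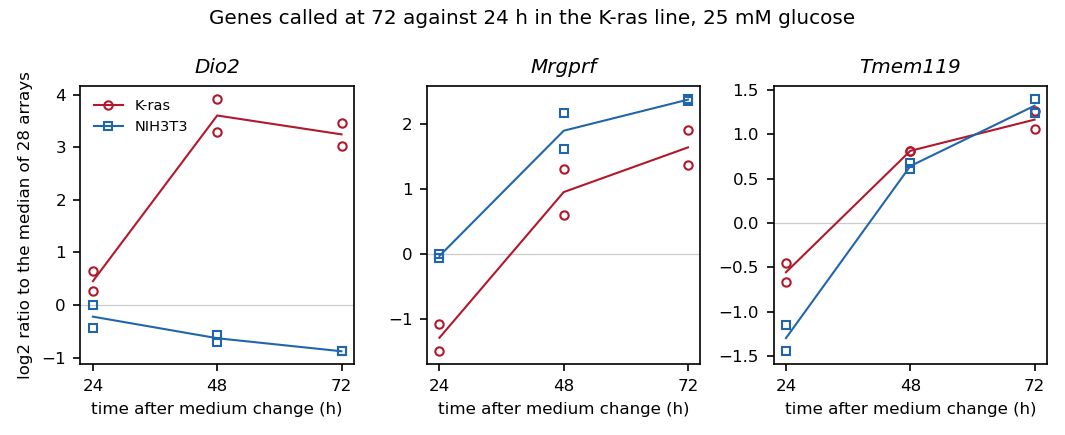
Log2 ratios of Dio2, Mrgprf and Tmem119 on the vertical axes against hours after medium change at 25 mM glucose. Circles are K-ras arrays and squares NIH3T3 arrays, 2 per time, and lines join the means. Dio2 stands at 3.03 and 3.47 in the K-ras arrays and near -0.88 in both NIH3T3 arrays at 72 h, while Mrgprf and Tmem119 are higher at 72 than at 24 h in both lines.

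Next by p-value among genes higher at 72 h were 11 that did not pass (limma adjusted p from 0.0863 to 0.403). They are given as values, and in each of them both 72 h arrays lay above both 24 h arrays, as the rule for naming them required. Ptx3, a secreted pentraxin of innate immunity, stood at 2.69 and 2.41 at 72 h, against -0.17 and -0.49 at 24 h. Cemip, a protein that binds and helps break down hyaluronan, stood at 2.70 and 2.39, against -0.18 and -0.31. Sparcl1, a matricellular protein, stood at 3.21 and 2.70, against 0.73 and 0.49. All 3 had a lower value on array 2 than on array 1 at 72 h, and their differences were 2.88, 2.79 and 2.34. In NIH3T3 the differences of the same 3 genes were 0.70, 1.87 and -0.58. Dkk3, a secreted protein of the Dickkopf family, stood at 3.32 and 3.49 at 72 h, against 1.33 and 1.92 at 24 h. Aldh3a1, an aldehyde dehydrogenase, stood at 1.96 and 2.52, against 0.14 and -0.06. Adm, the vasodilator peptide adrenomedullin, was below its median throughout, at -1.54 and -1.80, against -3.44 and -3.42. The remaining 5 were Tmem176a (1.69), Lrrc17 (1.64), Rgs4 (1.48), Tle5 (1.25) and Ptms (1.21), with the log2 difference in parentheses. Other probe sets of Ptx3, Rgs4, Cemip and Lrrc17 showed differences as low as 0.36, 0.08, 0.11 and 0.05.

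In the downward direction 14 genes led by p-value among those whose arrays did not overlap, and none passed (limma adjusted p from 0.403 to 0.519). Spry4, a Sprouty inhibitor of receptor tyrosine kinase signalling, stood at 0.35 and 0.91 at 72 h, against 1.94 and 1.70 at 24 h. Ptgs2, the inducible cyclooxygenase that starts prostaglandin synthesis, stood at -1.32 and -1.23, against -0.03 and 0.37. Psmc6, an ATPase subunit of the 26S proteasome, stood at -0.27 and 0.02, against 1.35 and 0.94. In these genes both 72 h arrays were low, as the naming rule required. In NIH3T3 the differences of Spry4, Ptgs2 and Psmc6 were -0.51, -2.85 and 0.05. Bmp2k, a kinase induced by BMP2, stood at -2.54 and -1.21 at 72 h, against 0.09 and -0.08 at 24 h. Ttc39b stood at -2.10 and -0.56, against 0.77 and 0.56. Txnrd1, the cytosolic thioredoxin reductase, stood at -1.64 and -0.74, against 0.10 and 0.52. For these 3 array 1 was the lower of the 72 h pair. The other 8 were Ccdc59 (-1.67), Hs6st2 (-1.45), Rsbn1 (-1.39), Bpnt1 (-1.32), Kctd4 (-1.29), Mtfr1 (-1.23), Lig4 (-1.14) and Denr (-1.08). Lig4 is the ligase of non-homologous end joining, and Denr takes part in translation reinitiation. Other probe sets of Spry4, Hs6st2 and Kctd4 lay above 0, at up to 0.22, 0.57 and 0.08. Those of Bmp2k, Mtfr1 and Rsbn1 came as near 0 as -0.17, -0.16 and -0.20.

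**Figure D3:**
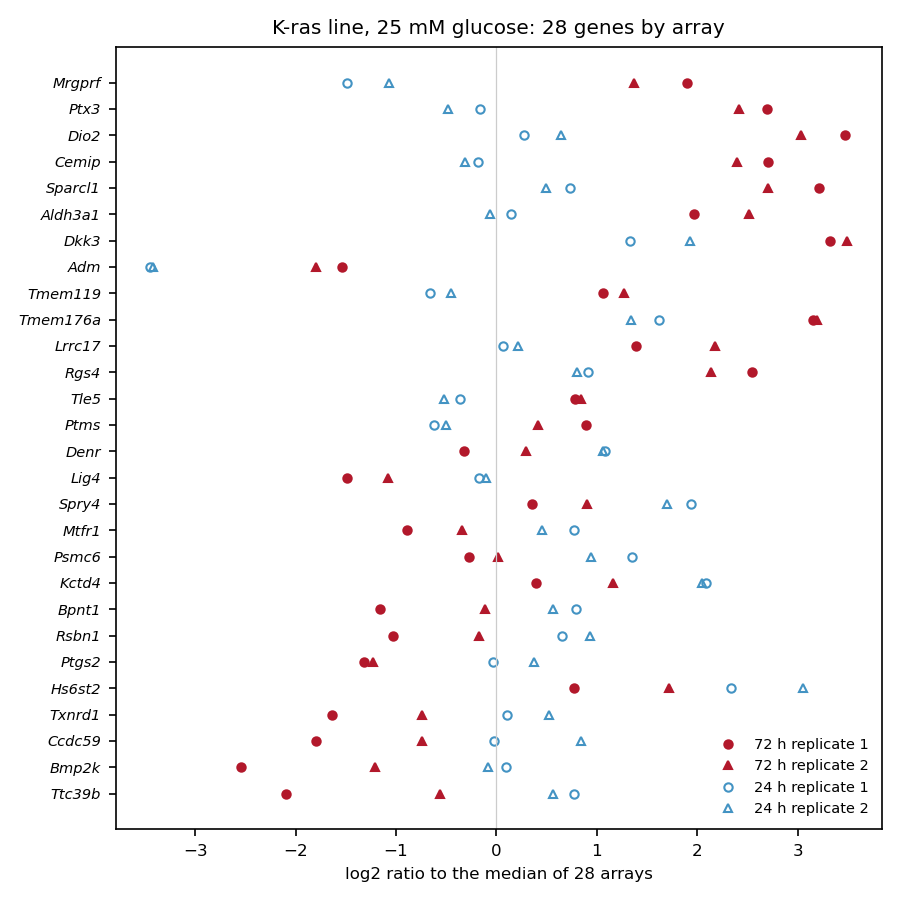
Log2 ratios (horizontal axis) of the 28 genes named by p-value, 14 higher and 14 lower at 72 h, in the K-ras line at 25 mM glucose. Red filled symbols are the 72 h arrays and blue open symbols the 24 h arrays, circles for replicate 1 and triangles for replicate 2. The groups are apart in every gene because that was a condition of the choice, and Dio2, Mrgprf and Tmem119 are the 3 that passed the adjusted test.

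A total of 46 gene lists were examined across the same comparison. No list held a called gene, so each is described by its median change, by how many members had both 72 h arrays above or both below both 24 h arrays, and by each 72 h array alone. Over all 18193 genes the median change was 0.02. Both 72 h arrays lay above both 24 h arrays in 20.9 percent of all genes and below them in 15.2 percent. Array 1 alone lay above both 24 h arrays in 7299 of the 18193 genes and below both in 7737. For array 2 alone these counts were 7544 and 5138, and the single-array counts of the lists are to be read beside them.

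The list of nucleolus and ribosome biogenesis genes was low at 72 h on both arrays. Its median change was -0.66, and all 35 measured genes had a negative value. In 22 of the 35, or 62.9 percent, both 72 h arrays lay below both 24 h arrays, and in 0 above. Array 1 alone was below both 24 h arrays in 28 genes and array 2 alone in 27. The list median by array was -0.78 and -0.30 at 72 h, against 0.07 and 0.16 at 24 h. Without array 1 at 72 h the median change was -0.39, and without array 2 it was -0.78. The members with the smallest p were Rrs1, a 60S subunit assembly factor, and Polr1b, the second largest subunit of RNA polymerase I. Rrs1 stood at -0.81 and -0.54 at 72 h, against 0.38 and 0.31 at 24 h, and its difference of -1.02 did not pass (limma adjusted p = 0.535). Polr1b stood at -0.38 and -0.05, against 0.53 and 0.64, a difference of -0.80 (limma adjusted p = 0.535). In NIH3T3 the list's median change was -1.43.

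The DNA replication and mitosis lists looked alike in the mean of the 2 arrays and differed between them. All 41 DNA replication genes had a negative value and a median of -0.55, and 38 of the 40 mitosis genes had a negative value and a median of -0.46. Array 1 was below both 24 h arrays in 38 replication genes and 37 mitosis genes. Array 2 was below both in 22 replication genes and 13 mitosis genes, and above both in 11 and 14. Both 72 h arrays lay below both 24 h arrays in 20 replication genes (48.8 percent) and 11 mitosis genes (27.5 percent), and above in 0 of either list. Over all genes 15.2 percent lay below and 20.9 percent above. Without array 1 the median change was -0.12 for DNA replication and 0.02 for mitosis, and without array 2 it was -0.97 and -0.82. The size of these medians thus rests mainly on array 1. The array medians for mitosis were -0.72 and 0.13 at 72 h, against 0.03 and 0.17 at 24 h. In NIH3T3 the median changes were -1.71 and -1.50. Anln, the cytokinesis scaffold anillin, showed the same split, with -2.95 and -0.07 at 72 h, against 0.09 and 0.31 at 24 h (difference -1.71, limma adjusted p = 0.572). Mki67, the Ki-67 proliferation antigen, stood at -0.79 and 0.13 at 72 h, against -0.05 and 0.03 at 24 h, so its groups overlapped. Myc, which drives ribosome production, stood at -0.90 and 0.21, against 0.25 and -0.09, and overlapped too.

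Lists of nucleotide synthesis, of serine and one-carbon enzymes and of proteasome subunits had negative medians as well. Purine and pyrimidine synthesis had 11 of 23 genes with both 72 h arrays lower and 1 with both higher, and a median of -0.45 that was -0.18 without array 1 and -0.72 without array 2. Serine and one-carbon enzymes had 8 of 17 lower and 1 higher, with a median of -0.50 and -0.36 without array 1. Proteasome subunits had 13 of 30 lower and 0 higher, with a median of -0.34 that was -0.22 without array 1 and -0.54 without array 2. Gart, a trifunctional enzyme of purine synthesis, stood at -0.98 and -0.08 at 72 h, against 0.58 and 0.39 at 24 h. Mthfd1, which interconverts folate one-carbon units, stood at -1.57 and -0.15, against 0.74 and 0.64. In both genes array 1 carried most of the difference. Other probe sets of Gart and Mthfd1 gave differences up to 0.17 and -0.34. The cytosolic ribosomal proteins had a median change of -0.05, which was 0.07 without array 1 and -0.16 without array 2, with 3 of 28 lower and 1 higher.

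Cholesterol synthesis and uptake was the list in which the largest share of genes had both 72 h arrays above both 24 h arrays, at 15 of 20 or 75 percent, with 1 lower. Its median change was 0.47, and it was 0.51 without array 1 and 0.61 without array 2. The array medians were 0.51 and 0.50 at 72 h, against 0.00 and 0.09 at 24 h, and 0.84 and 0.33 at 48 h. Srebf2, the transcription factor that switches on these enzymes, stood at 1.28 and 0.43 at 72 h, against -0.27 and -0.52 at 24 h. Fdps, farnesyl diphosphate synthase, stood at 0.87 and 0.60, against -0.21 and 0.11. Neither passed (limma adjusted p = 0.519 for Srebf2 and 0.546 for Fdps). Their other probe sets gave differences of 0.30 and 0.15. In NIH3T3 the list's median change was 0.61.

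Extracellular matrix lists had positive median changes with either 72 h array left out. Among 12 small leucine-rich proteoglycans 12 had a positive value, 8 had both 72 h arrays higher and 0 lower, and the median was 0.43. Collagens had 11 of 23 higher and 2 lower, with a median of 0.46, and other matrix proteins had 10 of 25 higher and 1 lower, with a median of 0.39. Without array 1 these medians were 0.37, 0.43 and 0.35, and without array 2 they were 0.63, 0.75 and 0.79. In NIH3T3 the median changes of the same lists were 0.765, 0.705 and 0.037. Col6a2 and Col6a1, chains of the same beaded-filament collagen, were the collagens with the smallest p. Col6a2 stood at 0.41 and 0.15 at 72 h, against -1.15 and -1.16 at 24 h (difference 1.43, limma adjusted p = 0.416). Col6a1 stood at 0.67 and 0.13, against -1.06 and -0.86 (difference 1.36, limma adjusted p = 0.519). Prelp, a proteoglycan of basement membrane and cartilage, stood at 2.31 and 1.05, against -1.60 and -1.86. Its difference of 3.41 was the largest K-ras change of any gene named here and did not pass (limma adjusted p = 0.535), and its other probe set gave 1.17. In NIH3T3 Prelp rose by 5.56 (limma adjusted p = 0.0143). Lum, the collagen-binding lumican, stood at 4.16 and 2.84, against 2.07 and 1.80. Thbs2, thrombospondin 2, stood at 3.40 and 3.09, against 1.86 and 1.79, and other probe sets of Thbs2 gave differences as low as 0.34. Col1a1, a chain of type I collagen, stood at 0.02 and -0.02, against -0.80 and -0.89. In these 6 genes both 72 h arrays lay above both 24 h arrays, as in 20.9 percent of all genes. All but Col1a1 were named for the smallest p of their list in this comparison, a choice that favours such a gap.

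**Figure D4:**
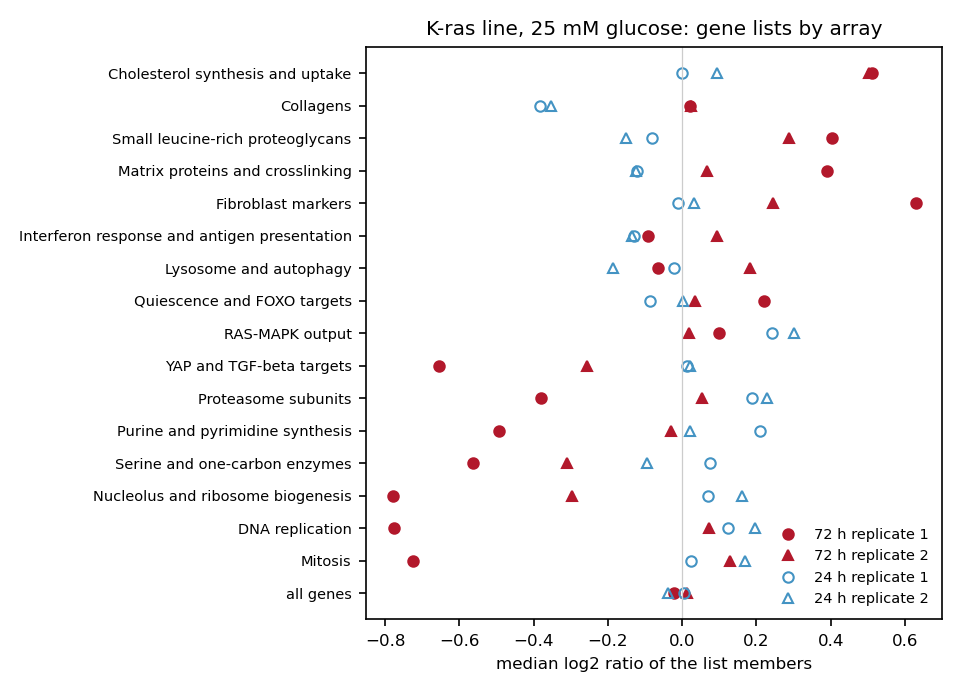
Median log2 ratio (horizontal axis) of the members of 16 gene lists and of all genes, on each K-ras array at 25 mM glucose. Red filled symbols are the 72 h arrays and blue open symbols the 24 h arrays, circles for replicate 1 and triangles for replicate 2. Both 72 h arrays lie right of both 24 h arrays for cholesterol synthesis and the matrix lists and left of them for the nucleolus, while DNA replication and mitosis are low on replicate 1, with medians of -0.78 and -0.72.

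Targets of RAS and of YAP and TGF-beta leaned to lower values. The RAS-MAPK output list had 12 of 33 genes with both 72 h arrays lower and 3 higher, with a median of -0.24 in the K-ras line, against -0.99 in NIH3T3. Plaur, the urokinase receptor, stood at -1.12 and -0.29 at 72 h, against 0.93 and 0.56 at 24 h (difference -1.45, limma adjusted p = 0.519). In NIH3T3 the difference of Plaur was -2.28 (limma adjusted p = 0.01). Nras, the related GTPase, stood at -0.75 and 0.26, against -0.04 and -0.08, and overlapped. The YAP and TGF-beta list had 11 of 19 lower and 5 higher, with a median of -0.38 that was -0.16 without array 1 and -0.67 without array 2. Id2, an inhibitor of basic helix-loop-helix factors, stood at -3.39 and -0.70, against 0.01 and 0.23. Among its 3 probe sets the difference ranged from -2.16 to -0.34. The p53 targets had 11 of 22 lower and 2 higher, and among them Cdkn1a, the inhibitor p21, stood at -1.65 and -0.43, against -0.14 and -0.20. The other probe set of Cdkn1a gave a difference of -0.04. Among contractile genes Tagln, the actin-binding transgelin, stood at -1.34 and -0.45, against 0.54 and 0.14, while the list's median was -0.05, 0.05 without array 1 and -0.10 without array 2. The list of EGF receptor ligands and feedback genes had 2 of 13 higher and 1 lower, with a median of -0.01, 0.07 without array 1 and -0.17 without array 2. Its members with the smallest p lay on opposite sides. Erbb3, a receptor of the EGF receptor family, stood at 0.23 and 0.05 at 72 h, against -0.72 and -0.61 at 24 h (difference 0.80, limma adjusted p = 0.519). The other probe set of Erbb3 gave 0.10. Ereg, the ligand epiregulin, stood at -0.31 and 0.11, against 0.83 and 0.98 (limma adjusted p = 0.569).

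Genes of quiescence, lysosomes and immunity gave smaller medians, most of which depended on the 72 h array. Quiescence and FOXO targets had 12 of 35 genes higher and 6 lower, with a median of 0.18 that was 0.05 without array 1 and 0.39 without array 2. In NIH3T3 the list's median change was 1.23. Gas1, a membrane protein of growth-arrested fibroblasts, stood at 2.03 and 1.17 at 72 h, against -0.53 and 0.11 at 24 h. In NIH3T3 Gas1 rose by 3.22 (limma adjusted p = 0.00833). Txnip, an arrestin that restrains glucose uptake, stood at 1.20 and 0.30, against -1.79 and -0.48. Both Txnip pairs were wide, with array 1 higher at 72 h and lower at 24 h, and its difference of 1.88 did not pass (limma adjusted p = 0.569). The interferon and antigen presentation list had 14 of 33 higher and 2 lower with a median of 0.16, which was 0.34 without array 1 and 0.06 without array 2. Cytokines and chemokines had 13 of 31 higher and 2 lower with a median of 0.17, which was 0.18 and 0.16 in the same order. Lysosome and autophagy had 12 of 35 higher and 3 lower with a median of 0.14, which was 0.24 without array 1 and turned to -0.05 without array 2. In NIH3T3 the interferon, cytokine and lysosome lists had median changes of 0.32, -0.19 and 0.98. Ccl7, a monocyte-attracting chemokine, stood at 0.92 and 1.41, against -0.03 and 0.23. Map1lc3a, an autophagosome membrane protein, stood at 0.67 and 0.25, against -0.66 and -1.11. Glycolysis and glucose transport had 9 of 27 higher and 7 lower with a median of -0.02, 0.08 without array 1 and -0.09 without array 2. The respiratory chain had 4 of 35 higher and 7 lower with a median of -0.15, whose sign rests on array 1, since it was 0.13 without array 1 and -0.40 without array 2. Array 2 alone was above both 24 h arrays in 20 respiratory chain genes and below both in 8.

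The medians of other metabolic lists differed between the 72 h arrays. Fatty acid oxidation had 9 of 22 genes higher and 4 lower, with a median of 0.19 that was 0.35 without array 1 and 0.01 without array 2. Fatty acid synthesis had 4 of 15 higher and 1 lower, with a median of 0.36 that was -0.02 without array 1 and 0.55 without array 2. The pentose phosphate pathway had 1 of 9 higher and 4 lower, with a median of -0.45 that was -0.05 without array 1 and -0.84 without array 2. Pfkl, the liver-type phosphofructokinase of glycolysis, stood at 1.45 and 0.47 at 72 h, against 0.07 and -0.23 at 24 h. Slc2a3, the glucose transporter GLUT3, stood at 1.03 and 0.22, against -0.21 and -0.20. Both genes were higher on array 1 than on array 2 at 72 h, and neither passed (limma adjusted p = 0.546 each). Other probe sets of Pfkl and Slc2a3 gave differences as low as -0.145 and 0.08. Slc1a3, a glutamate transporter, stood at 1.26 and 0.84, against 0.12 and -0.05 (difference 1.02, limma adjusted p = 0.475), in a list of amino acid transporters with 5 of 24 higher and 4 lower. The differences of the 6 probe sets of Slc1a3 ranged from -0.125 to 1.016. The TCA cycle list had 7 of 26 higher and 6 lower with a median of 0.00, 0.17 without array 1 and -0.19 without array 2. The glutamine, glutamate and asparagine list had 5 of 17 higher and 2 lower with a median of 0.19, which was 0.06 without array 1, 0.03 with scaling of the arrays to a common interquartile range and 0.08 with the mean of probe sets.

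Stress, clock and protease lists were described in the same way. The integrated stress response had 3 of 25 higher and 8 lower, and its median of -0.02 became -0.35 without array 1 and 0.35 without array 2. Cebpb, a bZIP transcription factor, stood at 1.48 and 0.72 at 72 h, against -0.03 and -0.25 at 24 h (difference 1.24, limma adjusted p = 0.541). Among antioxidant targets of NRF2, 4 of 24 were higher and 9 lower, and Gclm, the modifier subunit of the enzyme that starts glutathione synthesis, stood at -0.04 and -0.01, against 1.03 and 0.63. Hypoxia-responsive genes had 9 of 24 higher and 2 lower with a median of 0.17, which was 0.08 without array 1 and 0.37 without array 2. ER chaperones had 6 of 25 higher and 2 lower with a median of 0.13, which was 0.31 without array 1 and -0.10 without array 2. Cytosolic tRNA synthetases had 0 of 19 higher and 5 lower with a median of -0.11, -0.04 without array 1 and -0.13 without array 2. Circadian clock genes had 10 of 19 higher and 1 lower with a median of 0.17, 0.14 without array 1 and 0.43 without array 2. Hlf, a clock-controlled PAR bZIP factor, stood at 3.33 and 1.27, against 0.21 and 0.06 (difference 2.16, limma adjusted p = 0.546). Mmp2, the gelatinase that cleaves matrix proteins, stood at 0.44 and -0.14, against -0.77 and -0.86, while the list of matrix proteases and their inhibitors had a median of 0.33 that was -0.08 without array 1 and 0.75 without array 2.

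Markers of the labelled cell type and of others were given the same description, since levels are not known. Of 15 fibroblast markers 9 had both 72 h arrays higher and 2 lower, with a median change of 0.52 that was 0.32 without array 1, 0.85 without array 2 and 0.26 without array 1 at 24 h, and the list's array medians were 0.63 and 0.24 at 72 h, against -0.01 and 0.03 at 24 h. Col3a1, a fibrillar collagen, stood at 2.64 and 1.29 at 72 h, against -0.52 and -0.52 at 24 h. In NIH3T3 the median change of the fibroblast markers was 1.09. Leukocyte, epithelial, endothelial and skeletal muscle markers had medians of -0.09, 0.08, -0.09 and 0.07. Without array 1 these were -0.14, 0.03, 0.06 and 0.08, and without array 2 they were -0.005, 0.14, -0.21 and 0.06. All 8 fat cell markers had positive values, with a median of 0.18 that was 0.07 without array 1 and 0.32 without array 2. Both 72 h arrays were higher in 2 of the 8, array 1 alone in 7 and array 2 alone in 3. Fabp4, the fatty acid carrier of fat cells and macrophages, stood at 3.60 and 2.97, against 1.48 and 1.14 (difference 1.97, limma adjusted p = 0.403), and its 4 probe sets ranged from -0.30 to 1.97. The part of any change in cell makeup was not tested, and a share of cells cannot be told apart from RNA per cell in such samples.

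Whether a change between 72 and 24 h differed between the lines was tested in the same fit. In the NIH3T3 line 1561 genes were called between 72 and 24 h, 8.58 percent of those tested, 991 (5.45 percent) higher and 570 (3.13 percent) lower. The difference between the lines, K-ras minus NIH3T3, passed in 6 genes or 0.033 percent, 4 (0.022 percent) with a higher and 2 (0.011 percent) with a lower change in the K-ras line. The higher were Fosl1, Dio2, Noct and Dusp4, and the lower were Ranbp3l and Galnt15. In the 5 other than Dio2 the change lay between -0.29 and 0.27 in the K-ras line, and in NIH3T3 each of the 5 was called. At an unadjusted p under 0.05 there were 2582 genes, 14.2 percent. A gene called in the 1 line and not in the other is not shown to differ by that alone.

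Fosl1 encodes Fra-1, an AP-1 factor downstream of ERK. It stood at 0.30 and 0.39 at 72 h, against 0.77 and 0.50 at 24 h, in the K-ras line. In NIH3T3 it stood at -4.79 and -4.50 at 72 h, against 0.14 and -0.45 at 24 h, with -2.41 and -1.84 at 48 h. Its change was -0.29 in the K-ras line and -4.49 in NIH3T3, a difference of 4.20 ± 0.38 (limma adjusted p = 0.00734). The difference in its other probe set was 3.60.

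Dusp4 encodes a nuclear phosphatase that switches off MAP kinases. In the K-ras line it stood at 0.95 and 0.86 at 72 h, against 0.77 and 0.50 at 24 h, and in NIH3T3 at -3.01 and -2.69, against -0.29 and -0.60. All 4 K-ras arrays were above all 4 NIH3T3 arrays. The difference of the changes was 2.68 ± 0.32 (limma adjusted p = 0.0344). Noct encodes nocturnin, an NADPH phosphatase with a daily rhythm in mouse liver. In the K-ras line it stood at 0.40 and 0.19 at 72 h, against 0.35 and 0.35 at 24 h, and in NIH3T3 at -3.39 and -3.02, against 0.10 and -0.18. Its lines were thus near each other at 24 h and apart at 72 h, and the difference was 3.11 ± 0.33 (limma adjusted p = 0.0237).

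Ranbp3l encodes a Ran-binding protein involved in nuclear export. In the K-ras line it stood at -0.10 and 0.24 at 72 h, against -0.08 and -0.01 at 24 h, and in NIH3T3 at 4.51 and 4.42, against 0.53 and 0.69. The NIH3T3 arrays at 48 h, at 1.82 and 2.39, lay between those at 24 and 72 h. The difference of the changes was -3.74 ± 0.32 (limma adjusted p = 0.00734), and it was -1.50 in the other probe set. Galnt15 belongs to the family of enzymes that start O-linked glycosylation. In the K-ras line it stood at -0.01 and -0.23 at 72 h, against -0.28 and -0.19 at 24 h, and in NIH3T3 at 2.41 and 2.74, against -0.11 and 0.05. The difference was -2.48 ± 0.31 (limma adjusted p = 0.0391), and -0.69 in the other probe set.

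**Figure D5:**
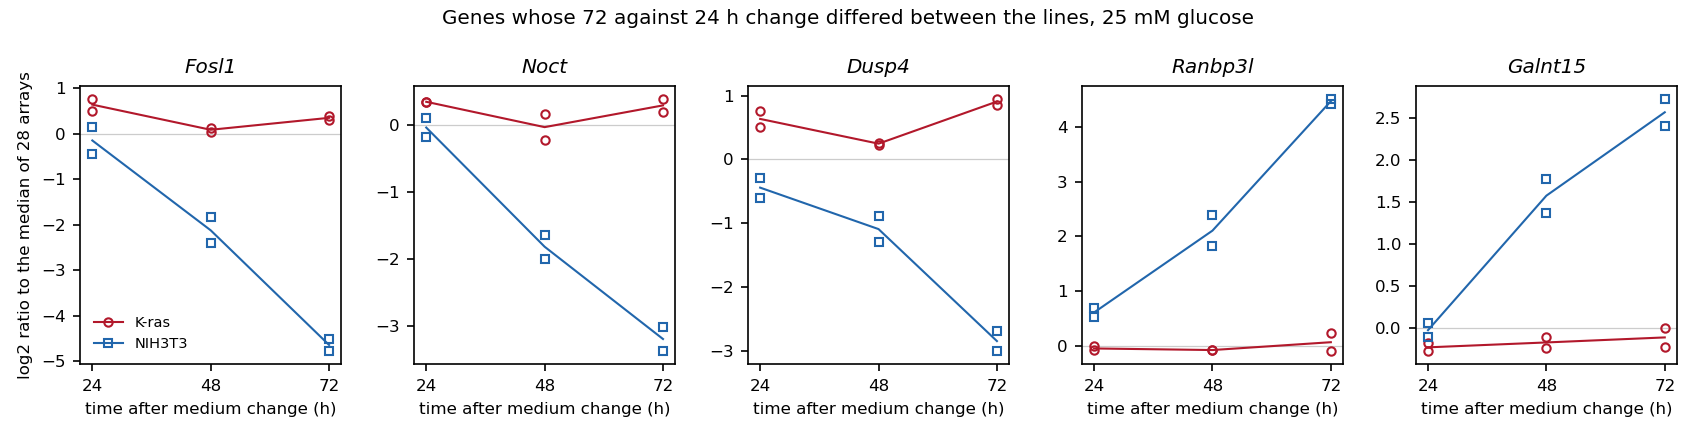
Log2 ratios of the 5 genes other than Dio2 whose change differed between the lines (vertical axes, separate scales) against hours after medium change at 25 mM glucose. Circles are K-ras arrays and squares NIH3T3 arrays, 2 per time, and lines join the means. The K-ras arrays stay between -0.28 and 0.95, whereas the NIH3T3 arrays at 72 h reach -4.79 for Fosl1 and 4.51 for Ranbp3l.

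The promoter of Galnt15 is shown as the only other promoter of these genes in which a searched motif was found, an AP-1 site (TGANTCA, the site bound by Fos and Jun dimers) in capitals (RefSeq, GRCm38.p6, chr14:32028853-32029152, plus strand).
Galnt15 promoter: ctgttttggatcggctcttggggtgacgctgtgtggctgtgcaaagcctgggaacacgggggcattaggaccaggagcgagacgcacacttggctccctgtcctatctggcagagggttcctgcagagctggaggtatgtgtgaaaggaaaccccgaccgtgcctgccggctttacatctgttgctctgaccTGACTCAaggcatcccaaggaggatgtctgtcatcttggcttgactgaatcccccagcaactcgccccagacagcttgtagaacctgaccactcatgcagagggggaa
The site begins 58 bases before the transcription start. TGANTCA, the same on both strands, is held by 2565 of the 32851 promoters, or 7.81 percent. This motif too was chosen after the values were seen, and the promoter is shown because it matched. The match says nothing about binding or about the change of Galnt15. The windows of Noct and Ranbp3l held neither motif. Of 8 genes looked up, 4 matched a promoter in the table. Mrgprf, Tmem119, Fosl1 and Dusp4 are named only.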

How the data were processed

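Total RNA was labelled with biotin and hybridised to Affymetrix arrays, per the labels' protocols, and RMA is named per the submitters' processing notes, without a version. The deposited values are log2 ratios: 2 to the power of the value had a median of 1 over 28 arrays, within 0.001, in all 45101 probe sets, so each is relative to the probe set's own median. Depth does not apply to arrays; their number limits the precision.

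The platform table gave 1 symbol to 34945 probe sets, several to 932 and none to 9160, and 64 were controls; 34741 matched RefSeq by Entrez number. Each of 18193 genes was represented by its most variable probe set (by SD across all arrays). Other probe sets are given for only some of the named genes. Groups came from the labels. limma 3.58.1 (R 4.3.3; lmFit, eBayes) was fitted with 1 coefficient per group on the 12 arrays at 25 mM glucose and 24, 48 and 72 h (6 residual degrees of freedom), with Benjamini-Hochberg adjustment over all genes. An earlier summary of these data used all 28 arrays. The 12 were taken because 6 of the rest have the profile of the other line; the wider fit called 0 genes.

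The comparison, gene lists (1015 of 1093 entries measured) and naming rule were chosen with earlier results of these data known. The rule named, per direction, 14 genes whose arrays did not overlap, called ones first and then by smallest p. Clone and predicted-gene symbols were left out of these 14. The rule also named up to 2 members per list, a set fixed by name, and up to 5 genes per direction of the line difference. Of the set fixed by name 3 were not analysed here. Values of only some named genes are printed. The 2 motifs were chosen after the values and the Dio2 promoter were seen. On simulated data with 18193 genes, 8 of 151 calls were false for the change, and 6 of 125 for the line difference. The simulated arrays had equal spread and no correlation, so these rates may not hold for the real arrays. Python 3.11.15, pandas 2.3.3, numpy 2.4.6 and matplotlib 3.10.9 were used.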

Additional observations from a re-analysis of the deposited data

Results flagged for a closer look

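In 6 genes the change from 24 to 72 h differed between the lines by limma's test of the difference itself, K-ras minus NIH3T3. The log2 difference was 4.202 for Fosl1, 3.451 for Dio2, 3.111 for Noct and 2.677 for Dusp4, and it was -3.740 for Ranbp3l and -2.484 for Galnt15. The change itself was called for Dio2 in the K-ras line and for the other 5 in NIH3T3. Over the alternatives the limma adjusted p ranged from 0.000131 to 0.151 for Fosl1, from 0.00685 to 0.221 for Dio2, from 0.00685 to 0.214 for Noct, from 0.00245 to 0.267 for Dusp4, from 0.000129 to 0.11 for Ranbp3l and from 0.00887 to 0.282 for Galnt15.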

How the results depend on the processing

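The counts of called genes depended on the processing. For 72 against 24 h (3 in the report), all 28 arrays, the 6 K-ras arrays alone, the 4 arrays compared, scaling to a common interquartile range, array weights and crossed replicate numbers each gave 0 calls, with 1849, 1252, 802, 1609, 862 and 1826 genes at an unadjusted p under 0.05. The 22 arrays without those out of place gave 7, all higher, and 2 of them were among the 3. Leaving out 1 array gave 0 to 2744 calls (0 to 1208 higher, 0 to 1536 lower), and 2744 came without K-ras 72 h replicate 2. For the difference between lines (6 in the report), all 28 arrays gave 1, the 22 arrays 16, the 8 arrays compared 70, quantile normalization 13, scaling 3, array weights 2 and leaving out 1 array 0 to 2171, the last without K-ras 72 h replicate 2. With the replicate number as a block the counts were 4 and 2, and crossed numbers (chosen after the data were seen) gave 8 for the lines. Deviations of same-numbered K-ras arrays at 72 and 24 h correlated at r = -0.33, so equal numbers do not pair them. Of 20 alternatives Mrgprf stayed called in 7, Dio2 in 6 and Tmem119 in 3, with limma adjusted p up to 0.854 in each. Of 19, Fosl1 stayed in 14, Ranbp3l in 13, Noct in 10, Dio2 and Dusp4 in 8 and Galnt15 in 5. The 6 line differences kept their sign in all 114 values. Of 2445 values of 123 named changes 2311 kept direction and side of the threshold, 44 lost the call, 79 gained one and 11 turned sign. Most gained calls came without K-ras 72 h replicate 2. Only Mrgprf, Dio2 and Tmem119 were called in the report, and they lost the call in 13, 14 and 17 of 20 alternatives. For the other named changes keeping the side meant staying uncalled, so the 2311 does not measure how stable calls are. Ranges without 1 array of the groups compared were -0.690 to 0.320 for Nras, -0.983 to 0.134 for Myc, -1.678 to 0.736 for Ccnd1, -0.778 to 0.138 for Mki67 and -0.055 to 0.282 for Ranbp3l. The signs turned for Nras (0.021 with quantile normalization, 0.024 with scaling and without K-ras 72 h replicate 1), Il33 (-0.387 with scaling), Cox5b (-0.024) and Cd8a (0.047) with the mean of probe sets, Ccnd1 (without K-ras 24 h replicate 2 and, at 0.481, without 72 h replicate 2), Myc and Mki67 without 72 h replicate 1, and Ranbp3l without 72 h replicate 2. Of 920 values of the 46 list medians 96 moved by more than the spread between replicates, 42 of them without a 72 h array. The cause was not tested. That spread came from the same K-ras array medians at 72 and 24 h, so leaving out 1 of these arrays can shift a median by about as much. A turn of sign alone was not counted as moved. The count thus says little about how stable the medians are. In fits that leave 1 array in a group, that array is assumed to vary like the others. Signal over background is unknown, and 2 arrays a group limit the precision.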
